A study of Mus musculus with 22 samples.

Results

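Input DNA, the sheared chromatin set aside before an antibody is added, was compared between A/J and BALB/cJ Kupffer cells over 93128 autosomal windows. These are the windows whose input counts summed to at least 30 over the 6 libraries, out of 96381 windows in the whole table, and 1043 further autosomal windows stayed below that sum. The study mapped the acetylated form of lysine 27 on histone H3 (H3K27ac, a mark of active promoters and enhancers) in Kupffer cells, macrophages that live in the liver sinusoids. The cells were sorted from control male mice aged 8 to 12 weeks, and livers of all groups were digested with flavopiridol present, a blocker of transcription. Inputs came from A/J (3 libraries), BALB/cJ (3 libraries) and C57BL/6J (1 library, used as a reference only), and H3K27ac from the same strains (3 libraries each) and from CB6F1/J mice, the cross of BALB/cJ and C57BL/6J (3 libraries). Nothing in the sources used here says that the libraries of a strain came from separate animals, so p-values measure only the spread between these libraries, which may be technical.

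No antibody selects input reads, so their number in a window depends on the amount of DNA there, on how well its reads can be placed and can also depend on how readily the chromatin shears. A stretch that a strain lacks gives no reads, and a duplicated one gives more. Inbred mouse strains are known to differ in gene number mostly in clustered families, among them immune sensors and major histocompatibility genes. The A/J and BALB/cJ reads were placed on copies of the C57BL/6J reference that carry each strain's single-base changes and short insertions and deletions but no larger rearrangements, so absent DNA and DNA too different to be placed cannot be told apart here.

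The inputs were shallow. Sums over all windows were 797410 to 1916590 counts in the A/J libraries, 716354 to 1145760 in the BALB/cJ libraries and 583518 in the C57BL/6J library. The median tested window held 7 to 16.5 counts per A/J library, 6 to 9.5 per BALB/cJ library and 5 in the C57BL/6J library. Below, a normalised count is a deposited count scaled by effective library size. Chromosome X, which males carry once, had 43.8% to 47.9% of the mean autosomal input in A/J, 43.7% to 50.2% in BALB/cJ, with 45.9% in C57BL/6J. All 8 Kupffer cell marker genes had H3K27ac windows, with a median best level of 227 normalised counts in A/J and 252 in BALB/cJ. So had 4 of 4 markers of sinusoidal endothelium (89.7 in A/J, 103 in BALB/cJ), 3 of 4 of hepatocytes (26.9 and 33.7) and 3 of 4 of neutrophils (14.6 and 44.1). The neutrophil median is the value of *S100a8*, with *S100a9* at 2.90 and 2.92 and *Elane* at 67.5 and 74.3. Stellate cells (5.28 and 3.18), B cells (61.2 and 47.2) and T and NK cells (14.3 and 18.6) had 1 of 4 markers each. The endothelial and leukocyte marker *Pecam1* reached 444 in A/J and 377 in BALB/cJ, and the part of other cells in the results was not tested.

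Wide differences were sought in blocks of 10 neighbouring windows, which held a median of 80 counts per library. Input around *Btbd9* and *Glo1* and around *Nlrp1b* was higher in A/J, and input of the Ifi200 genes was higher in BALB/cJ. Of 7278 blocks, 8 were called at an adjusted p under 0.05 and a log2 difference over 0.5 (edgeR's quasi-likelihood test, Benjamini-Hochberg adjustment), which is 0.11%, with 3 higher in A/J and 5 in BALB/cJ. DESeq2 also called 6 of the 8. Between 3 and 7 blocks were called when 1 library was left out, with 3 without A/J replicate 3, 4 without A/J replicate 1 and 5 without A/J replicate 2.

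**Figure D1:**
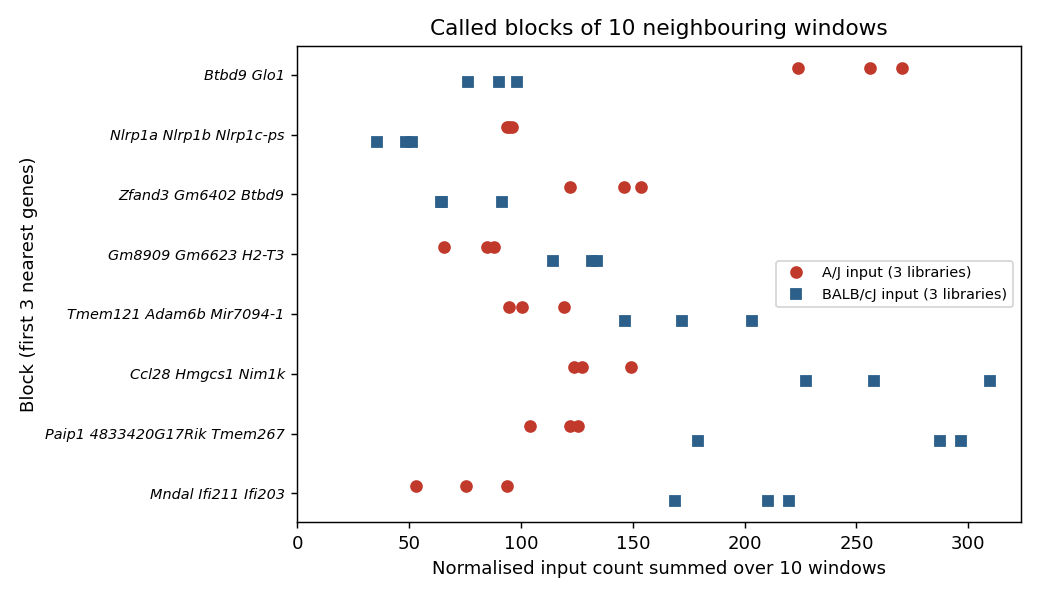
Normalised input counts summed over 10 neighbouring windows (horizontal axis) for the 8 called blocks, with each library as a point and A/J drawn above BALB/cJ; blocks carry the names of their first nearest genes. In the *Btbd9* and *Glo1* block the 3 A/J libraries lie between 224 and 270 and the 3 BALB/cJ libraries between 76.2 and 98.1.

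The widest A/J excess covered *Btbd9*, which encodes a BTB-domain protein, and reached *Glo1*, whose enzyme starts the removal of methylglyoxal. The block at chr17:30506529-30613195 (mm10) held 224, 270 and 256 normalised counts in A/J, against 76.2, 90.1 and 98.1 in BALB/cJ. The lowest A/J library was above the highest BALB/cJ library, which largely follows from calling the block on these same libraries. Its log2 difference was 1.5 (SE 0.21, adjusted p = 3.56e-08, edgeR). The block before it, from *Zfand3* into *Btbd9*, held 154, 146 and 122 in A/J against 64.7, 64.0 and 91.6 in BALB/cJ (log2 0.90, SE 0.16, adjusted p = 5.70e-05, edgeR). Its end lies within the stretch of raised windows given below. The last tested window before that stretch, also in this block, differed by only 0.16 on the log2 scale. Both blocks were called in all 8 alternatives run on them, which were DESeq2, a term for the replicate number, and each library left out in turn.

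Window by window, the excess ran over 14 tested windows and 139 kb, and the libraries of the strains were separate in 14 of the 14, against 9.74% of all tested windows. The 14 were chosen by their fold change in these same libraries, so their separation largely follows from the choice and is no support. The mean over these windows was 25.6, 28.4 and 26.3 in A/J against 8.32, 9.08 and 9.79 in BALB/cJ, and 10.6 in C57BL/6J. A/J had 2.95 times the BALB/cJ level, and the single C57BL/6J library lay near BALB/cJ. The first window lies in a *Btbd9* intron (nearest start *Gm6402*) and held 32.2 ± 8.18 in A/J, against 8.95 ± 3.39 for the BALB/cJ libraries (mean ± SD, n = 3 each). At the *Btbd9* promoter A/J held 34.0 ± 4.52 and BALB/cJ 11.2 ± 3.77. The last window, the *Glo1* promoter, differed least: A/J held 23.5 ± 3.69, BALB/cJ 15.5 ± 5.27 and C57BL/6J 24.2. The nearest tested windows outside were 257 kb before, with a log2 difference of 0.16, and 359 kb after, with 0.23, so both edges fell where no window was tested. Single windows passed the test at 3 places, all in *Btbd9* introns, where A/J had between 22.3 and 32.2 and BALB/cJ between 5.30 and 7.92.

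The longest run of called windows was at *Nlrp1b*, an inflammasome sensor, and *Nlrp1c-ps*, a pseudogene beside it. Over 5 consecutive tested windows and 65.8 kb of chromosome 11, the mean was 13.6, 11.4 and 13.0 in A/J against 0, 0.151 and 0.091 in BALB/cJ, and 12.6 in C57BL/6J. BALB/cJ was thus empty or nearly so where both other strains had reads. At the *Nlrp1b* promoter window the deposited counts were 11.5, 19 and 12 in A/J against 0, 0 and 0 in BALB/cJ. With 3 counts over the 3 BALB/cJ libraries as the floor, A/J was at least 11.1-fold higher there, and the 4 windows nearest to *Nlrp1b* gave such bounds from 8.98 to 11.7. The *Nlrp1c-ps* window had 41 counts in A/J against 1 in BALB/cJ, a depth-adjusted ratio of 32.0 (exact 95% counting interval 5.43 to 1295). A window at the *Nlrp1c-ps* start, below the sum of 30, held 26 counts in A/J against 0 in BALB/cJ, with 8 in C57BL/6J.

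Reads were present in BALB/cJ on the side of the sensor *Nlrp1a*. Its 3 windows averaged 8.88 normalised counts in A/J and 7.15 in BALB/cJ, and none passed the test. A pair of these lie in intron 12 of the annotated *Nlrp1b* transcript, while the window in intron 2 had no BALB/cJ read. The block that holds all of these genes had 93.7, 94.8 and 96.0 in A/J against 35.5, 48.4 and 51.2 in BALB/cJ (log2 1.04, SE 0.21, adjusted p = 0.00254, edgeR). It was called in 7 of 8 alternatives, and its adjusted p was 0.146 without A/J replicate 3.

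Reference sequence is shown for some of the windows without a single read in 1 strain, as the DNA that was not seen there. These are the central 200 bases on the forward strand of GRCm38 (mm10). Capitals mark matches on either strand to GAGGAAGT (the PU.1 motif; PU.1 is a macrophage lineage factor) or TGANTCA (AP-1), and the motifs do not overlap each other here. The *Nlrp1b* windows shown had no read in BALB/cJ, the second of them lying in an intron of *Nlrp1c-ps*, and the *Tmsb10* window had none in A/J. The *Nlrp1b* window in intron 2 and the *Gm13286* promoter, also without reads in BALB/cJ, hold neither motif in their central 200 bases and are not shown.
Nlrp1b promoter, chr11:71230758-71230957: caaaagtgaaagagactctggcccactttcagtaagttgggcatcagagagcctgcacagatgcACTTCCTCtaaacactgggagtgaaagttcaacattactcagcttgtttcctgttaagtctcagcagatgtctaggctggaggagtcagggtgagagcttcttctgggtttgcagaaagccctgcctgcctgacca
Nlrp1b upstream, chr11:71251417-71251616: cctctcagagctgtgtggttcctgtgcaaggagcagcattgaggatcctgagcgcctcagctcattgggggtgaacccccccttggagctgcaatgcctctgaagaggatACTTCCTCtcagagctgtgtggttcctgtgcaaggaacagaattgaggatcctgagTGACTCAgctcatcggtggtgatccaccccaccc
Tmsb10 nearest, chr6:72933064-72933263: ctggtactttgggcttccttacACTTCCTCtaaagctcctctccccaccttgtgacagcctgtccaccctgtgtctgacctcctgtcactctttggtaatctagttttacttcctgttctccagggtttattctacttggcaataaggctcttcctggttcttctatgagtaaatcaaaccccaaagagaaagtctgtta
The PU.1 motif was in the central 200 bases of 20.7% of the called windows and 8.58% of all tested windows, and the AP-1 motif in 6.9% and 14.3%. With 29 called windows, some of them neighbours, these shares are a description only.

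In the Ifi200 cluster, whose genes encode interferon-inducible proteins of the PYHIN family, BALB/cJ had more input. The block of *Mndal*, *Ifi211*, *Ifi203* and *Ifi202b* held 93.7, 52.9 and 75.3 normalised counts in A/J against 220, 169 and 210 in BALB/cJ (log2 -1.52, SE 0.19, adjusted p = 9.07e-11, edgeR). No library of one strain reached the other, which largely follows from calling the block on these same libraries. The block was called in all 8 alternatives run on it. The excess covered 19 tested windows over 173 kb, at a mean of 7.62, 5.35 and 7.16 in A/J against 21.4, 16.9 and 18.6 in BALB/cJ, with 9.97 in C57BL/6J. A near-identical copy elsewhere in the reference was found for 10 of the 19, and 8 more windows of the interval were below the sum of 30, so reads may be shared between members.

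Within the cluster, *Ifi202b* was the most uniform. All 6 of its windows had separate libraries and no near-identical copy, 3 were called, and they averaged 7.81 in A/J against 24.6 in BALB/cJ, with 7.93 in C57BL/6J. These windows lie in the stretch, which was chosen by fold change in the same libraries, so their separation largely follows from that choice. *Mndal* averaged 5.22 in A/J against 15.5 in BALB/cJ, with 11.5 in C57BL/6J, over 6 windows, with 1 called, and a further *Mndal* window below the sum had 0 counts in A/J against 24 in BALB/cJ, with 3 in C57BL/6J. *Ifi203* averaged 9.08 in A/J and 19.6 in BALB/cJ over 4 windows, with 1 called. By contrast *Aim2*, a cytosolic DNA sensor of the same family, had a median log2 difference of -0.01 over 22 windows, and *Ifi205*, just past the stretch, 0.09 over 3 windows, with no call in either. Of the 71 tested windows of the family, 5 (7.04%) passed with more input in BALB/cJ, against 0.0129% of all tested windows, and 0 with more in A/J. Their median log2 difference was -0.32, against 0.01 over all tested windows.

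BALB/cJ also had more input around *Ccl28*, a chemokine of mucosal surfaces. Over 14 tested windows and 144 kb, from the *3110070M22Rik* promoter to the first intron of *Ccl28*, the mean was 17.9, 21.5 and 16.1 in A/J against 38.4, 63.4 and 57.9 in BALB/cJ, and 31.7 in C57BL/6J. BALB/cJ replicate 1 was well below its partners but above every A/J library. All 3 strains exceeded the median tested window, which held 9.26 in A/J and 9.20 in BALB/cJ. The first of its blocks was lower in A/J by 1.10 on the log2 scale (adjusted p = 0.000876) and the next by 0.96 (adjusted p = 0.0187, edgeR). DESeq2 called both, but they held in only 5 and 4 of 8 alternatives, and without A/J replicate 3 their adjusted p was 0.458 and 0.903.

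The remaining blocks were less stable. A block of 2831 kb across the immunoglobulin heavy chain region of chromosome 12 held 119, 94.5 and 100.4 in A/J against 147, 203 and 172 in BALB/cJ (log2 -0.76, adjusted p = 0.0317, edgeR). A block at *H2-T3*, a non-classical major histocompatibility gene, held 65.7, 84.6 and 87.8 in A/J against 132, 134 and 114 in BALB/cJ (log2 -0.66, adjusted p = 0.0187, edgeR). Each was called in 2 of 8 alternatives and neither by DESeq2, with adjusted p up to 0.903 and 0.774.

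**Figure D2:**
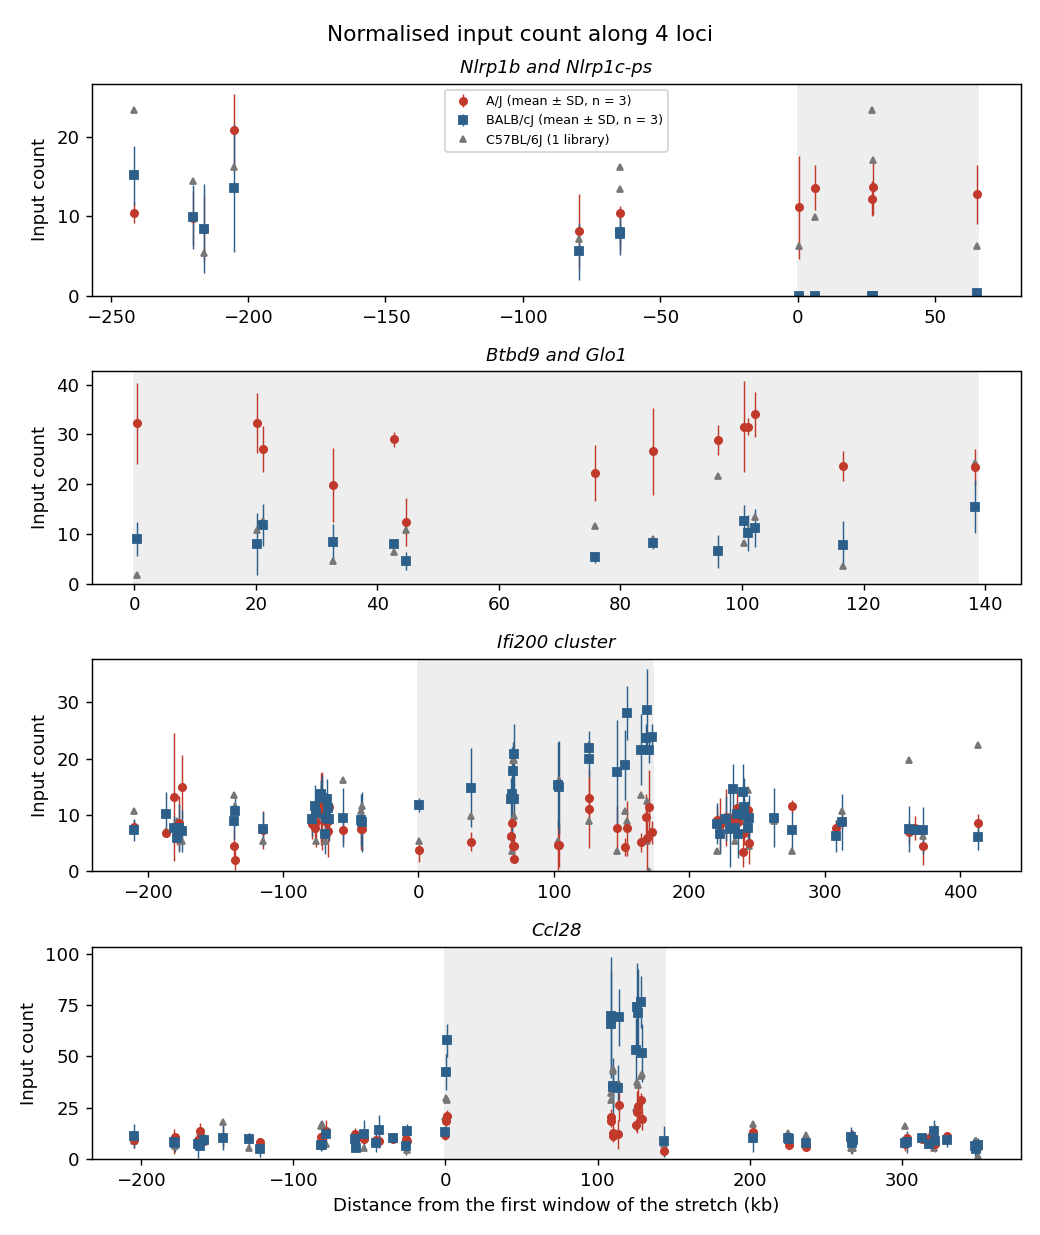
Normalised input count (vertical axis) by distance in kb from the first window of each shaded stretch; A/J and BALB/cJ are means ± SD of 3 libraries and C57BL/6J is 1 library. In the shaded part of the *Nlrp1b* panel the A/J means lie between 11.1 and 13.7 while BALB/cJ is at or near 0, and in the shaded part of the *Ccl28* panel every BALB/cJ mean lies above the A/J mean, with C57BL/6J above both in a pair of windows. Shaded windows were chosen by their fold change in the same libraries.

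Among single windows, 29 of 93128 were called at an adjusted p under 0.05 and over 2-fold (edgeR), 0.0311% of those tested, of which 17 were higher in A/J (0.0183%) and 12 in BALB/cJ (0.0129%). These calls depended on the tool and on single libraries. DESeq2 called 0 windows, with a smallest adjusted p of 0.115 and 1065 windows at an unadjusted p under 0.05, against 4059 in edgeR. It gave the same direction and an unadjusted p of at most 0.0101 for all 29, and its median dispersion was 0.164, against 0.0464 in edgeR. Without A/J replicate 2, the deepest library, edgeR called 9 windows, and without BALB/cJ replicate 3 it called 8. It called 17 without A/J replicate 1, 18 without BALB/cJ replicate 2 and 20 without A/J replicate 3. Without BALB/cJ replicate 1 it called 25, but only 14 of these were among the 29. No window was called under every alternative, since DESeq2 called 0, but stability differed widely. The *Nlrp1b* promoter window and those nearest to *Nlrp1c-ps* and *Tmsb10* kept their call in 11 of 12 alternatives, losing it only in DESeq2. The window nearest to *Mir5098* kept its call in 3 of 12, the *Megf6* promoter in 4 of 12 and the *Gm6034* window in 5 of 12. The deeper *Mir6388* window kept its call in 5 of 13. The libraries of the strains were separate in 29 of the 29, but these windows were chosen by a test on the same libraries.

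**Figure D3:**
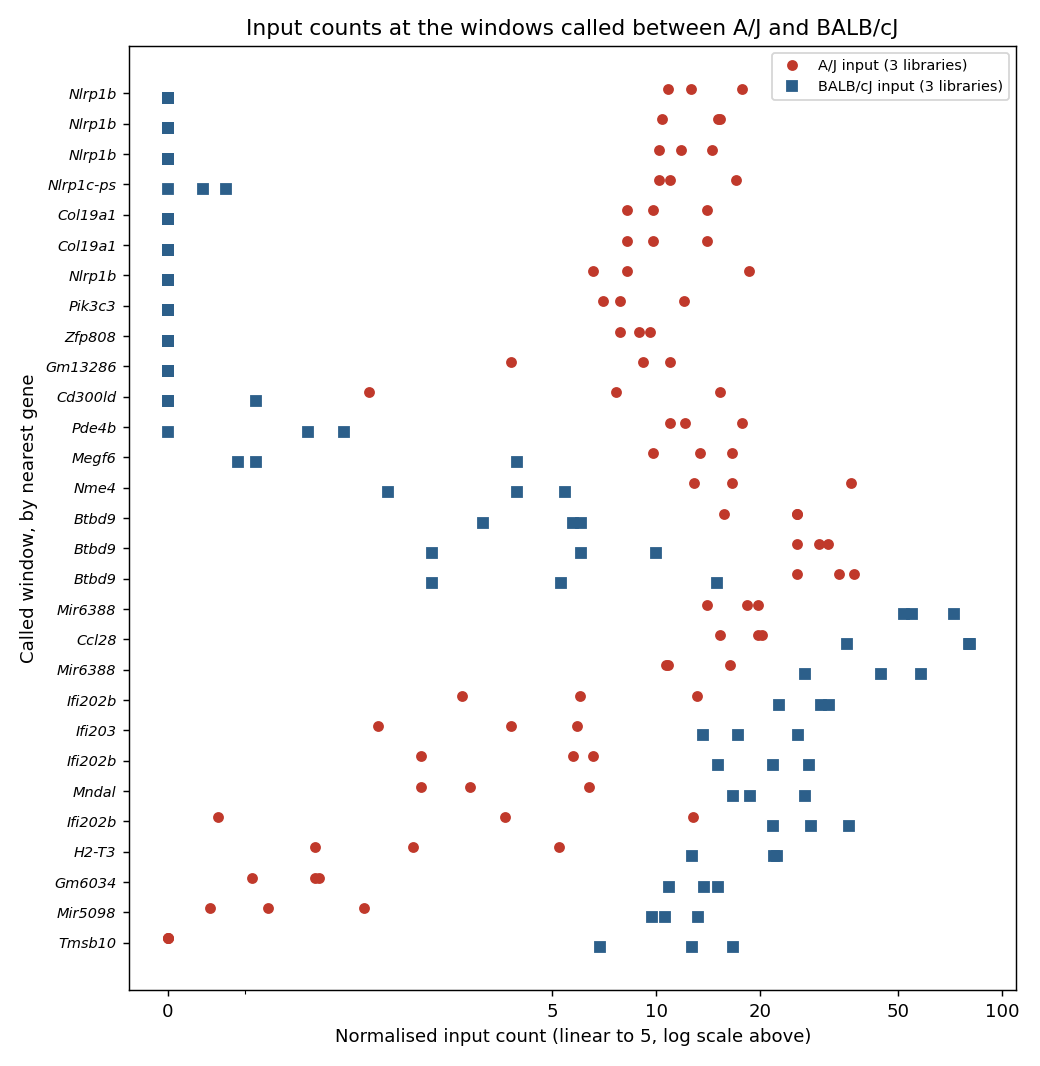
Normalised input count of each library (horizontal axis, linear to 5 and logarithmic above) at the 29 called windows, ordered by fold change and named by nearest gene, with A/J above BALB/cJ for each window. In 9 windows the 3 BALB/cJ libraries are all at 0, and in 1, nearest to *Tmsb10*, the 3 A/J libraries are.

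Every library of 1 strain lacked reads in 10 called windows, 9 in BALB/cJ and 1 in A/J. At the *Gm13286* promoter the counts were 7, 20 and 3.5 in A/J against 0, 0 and 0 in BALB/cJ, with 9 in C57BL/6J, so A/J was at least 7.94-fold higher. Near *Tmsb10*, which encodes an actin-binding thymosin, the counts were 0, 0 and 0 in A/J against 6, 11 and 14 in BALB/cJ, with 7 in C57BL/6J, so A/J was at least 13.2-fold lower. Among the windows that passed the filter this was the only call of DNA without reads in A/J, and neither window has a near-identical copy. Besides the *Nlrp1b* windows, the rest have copies elsewhere in the reference. A pair of overlapping *Col19a1* windows had 7.5, 15 and 11 counts in A/J against 0, 0 and 0 in BALB/cJ and 0 in C57BL/6J, and each has a near-identical copy on the mitochondrial chromosome. The *Pik3c3* window has 48 such copies and the *Zfp808* window 1. A copy (at least 95% identity over 500 bases) was found for 20.7% of the called windows and 0.494% of all tested windows.

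Partial differences included *Pde4b*, a phosphodiesterase that breaks down cyclic AMP. Its called window had 13.5, 20 and 9.5 counts in A/J against 2, 0 and 2 in BALB/cJ (log2 3.06, SE 0.65, adjusted p = 0.014, edgeR). Over 9 neighbouring windows and 33.1 kb of 1 intron, the mean was 11.4, 9.99 and 9.44 in A/J against 2.87, 0.841 and 5.11 in BALB/cJ, with 11.5 in C57BL/6J. BALB/cJ replicate 2 was lowest and replicate 3 highest of its strain, and windows on either side differed by 0.21 and 0.54 on the log2 scale. At a window nearest to *Nme4*, a mitochondrial nucleoside diphosphate kinase gene, the counts were 28, 23.5 and 13 in A/J against 2.5, 3 and 6 in BALB/cJ, with 4 in C57BL/6J. A *Cd300ld* window had 2, 28 and 6 counts in A/J against 1, 0 and 0 in BALB/cJ (depth-adjusted ratio 28.1, exact 95% counting interval 4.73 to 1141), most of them in A/J replicate 2. The remaining A/J call was the *Megf6* promoter, with 7.5, 24.5 and 13 counts in A/J against 1, 3 and 1 in BALB/cJ.

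On the BALB/cJ side, the *H2-T3* window held 4, 3.5 and 2.5 counts in A/J against 19.5, 14.5 and 14 in BALB/cJ, with 13 in C57BL/6J. An intron window of *Gm6034*, also in the major histocompatibility region, held 1.5, 2 and 1.5 in A/J against 12, 10 and 12 in BALB/cJ. A pair of windows nearest to *Mir6388* was called, the deeper with 14, 36 and 11 counts in A/J against 45.5, 48 and 60.5 in BALB/cJ, and 2.5 in C57BL/6J. The window nearest to *Mir5098* held 1, 1 and 2 in A/J against 8.5, 7 and 14.5 in BALB/cJ.

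Set against C57BL/6J, 18 called windows were loss-like, with the higher strain within 2-fold of C57BL/6J and the lower strain over 2-fold under it, and 12 of these were low in BALB/cJ and 6 in A/J. At a limit of 1.5-fold, 11 were loss-like. The 12 include a pair of *Btbd9* windows, although over the whole *Btbd9* stretch BALB/cJ stood at 0.851 times C57BL/6J and A/J at 2.52 times. A further 7 were gain-like, with the lower strain within 2-fold of C57BL/6J and the higher strain over 2-fold above it, and 4 were neither. The gain-like windows included *Nme4*, *Ccl28* and 1 each of the *Btbd9*, *Ifi202b* and *Mir6388* windows. The 2 *Col19a1* windows are gain-like only because BALB/cJ and C57BL/6J are both at 0. With 0 to 16 counts per called window, the 1 C57BL/6J library is a coarse reference.

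By family, the NOD-like sensors had 5 of 26 tested windows called (19.2%, against 0.0311% of all tested windows), all higher in A/J. All of them belong to the single run at *Nlrp1b* and *Nlrp1c-ps*, with 0 called in *Nlrp1a*, *Naip1* and *Naip2*. Genes known for copy number differences had 3 of 31 (9.68%), all of them nearest to *Btbd9*. The major histocompatibility genes had 1 of 165, the paired immunoglobulin-like receptors 1 of 270, the zinc finger genes 1 of 1324 (0.0755%) and predicted genes 2 of 9532 (0.021%), the last a share near that of all windows. No window was called among 57 of natural killer receptors, 85 of guanylate-binding and related GTPases, 151 of C-type lectins, 209 of olfactory and vomeronasal receptors and 129 of housekeeping genes, with 0, 1, 4, 6 and 6 at an unadjusted p under 0.05 (edgeR), against 4.36% of all tested windows. At a share of 0.0311%, lists of this size would seldom hold a call, so these zeros are no result about the families. These families were listed with earlier results of the data known. Medians over each autosome lay between -0.01 and 0.04 on the log2 scale.

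The sum of 30 hides some loci. Of the 1043 windows below it, 23.6% have a near-identical copy, and 51 had 0 counts in all 6 inputs. In 15 of these 51 the C57BL/6J library had at least 5 counts, among them a pair of windows at *Skint3* with 19 counts together and a pair at *Trim5*, an antiviral restriction factor family gene, with 12.5. A further 28 windows lacked reads in BALB/cJ only and 18 in A/J only, and the Ifi200 family had such windows in both directions: A/J had 0 counts and BALB/cJ 18.5 at an *Ifi208* window, while A/J had 10.5 and BALB/cJ 0 at an *Ifi204* window.

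H3K27ac at the same windows was compared in the H3K27ac libraries of these strains. The paper set aside part of the sonicated lysate as input, so inputs and H3K27ac libraries may share chromatin. Of the 29 windows, 18 had enough H3K27ac to be tested, and 16 were called in the direction of the input and 0 against it, where 3.52% of all H3K27ac windows were called. These 16 are 55.2% of the called input windows but 0.767% of the 2086 windows called in H3K27ac and tested in the input. At the *Nlrp1b* promoter, H3K27ac was 84.4, 107 and 108 normalised counts in A/J against 0, 0 and 0 in BALB/cJ. Near *Tmsb10* it was 0.754, 0 and 0 in A/J against 49.4, 25.9 and 33.0 in BALB/cJ. Other called windows did not follow this. The *Cd300ld* window, below the H3K27ac filter, had H3K27ac of 1.51, 15.7 and 1.90 in A/J against 19.1, 16.5 and 16.8 in BALB/cJ, where the input was higher in A/J. The *Col19a1* windows, also below it, had 47.5, 3.14 and 46.9 in A/J against 20.8, 0 and 6.59 in BALB/cJ, where BALB/cJ had no input read.

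The input also moved with the mark over all windows called in H3K27ac. Called input windows were not left out: 10 are among those with more H3K27ac in A/J and 6 among those with more in BALB/cJ. Among 787 windows with more H3K27ac in A/J the median input log2 difference was 0.13, with 62.8% higher in A/J, and among 1299 with more H3K27ac in BALB/cJ it was -0.11, with 39.6% higher in A/J. Over 4-fold in H3K27ac these medians were 0.22 (70.6%, 286 windows) and -0.25 (32.5%, 403 windows), against -0.01 (49.5%) over 56654 windows not called in H3K27ac. The part of chromatin state in the input values was not tested.

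At the *Btbd9* promoter H3K27ac was 1573, 1844 and 1652 in A/J against 447, 419 and 509 in BALB/cJ (log2 1.88, SE 0.21, adjusted p = 1.45e-06, edgeR), where the input log2 difference was 1.60. In a joint fit, the excess of the H3K27ac over the input difference was 0.29 there (SE 0.51, adjusted p = 0.943) and 1.08 at the *Glo1* promoter (SE 0.43, adjusted p = 0.369, edgeR). An excess was not detectable at this input depth, which is not evidence that there is none. In the Ifi200 stretch, 8 of 16 windows tested for H3K27ac were called higher in BALB/cJ and 0 had a called excess. The joint fit called 510 windows in all, 0.868%, and 0 of the 16.

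*Pde4b* differed, with H3K27ac higher in A/J in 8 of 8 windows tested and a called excess over the input in 5. At 1 of these, chosen after its values were seen because BALB/cJ was not at 0 throughout, H3K27ac was 185, 122 and 155 in A/J against 0, 0 and 2.93 in BALB/cJ. The input log2 difference there was 1.21, and the excess was 5.44 (SE 0.91, adjusted p = 0.0001, edgeR). Without A/J input replicate 2 the joint fit called 285 windows, and without BALB/cJ input replicate 3 it called 316.

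**Figure D4:**
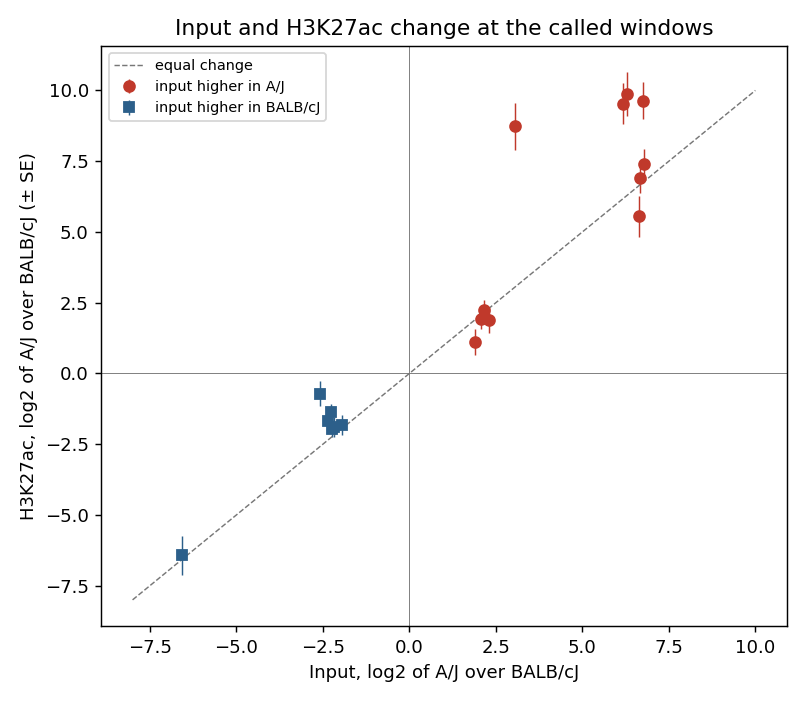
Log2 of A/J over BALB/cJ in H3K27ac (vertical axis, ± SE) against the same ratio in the input (horizontal axis) for the 18 called windows tested in both; the dashed line marks equal change. All 18 points have the same sign on both axes, and values of windows with no read in 1 strain depend on the prior count. For windows without placed DNA in 1 strain, the shared sign was fixed in advance.

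In CB6F1/J mice, H3K27ac reads are assigned to a parental allele only where known variants distinguish the strains. Of the autosomal regions counted in these mice, 80.6% had no read assigned to an allele. At *Nlrp1b* 3 of the 4 windows held the midpoint of a counted region, with 0 counts of the BALB/cJ allele and 0 of the C57BL/6J allele. This says nothing of either allele. The *Mndal* window had 34.5 BALB/cJ and 89 C57BL/6J allele counts, and the called window nearest to *Ifi203* had 19.5 and 5.5. Over the Ifi200 stretch the sums were 581 and 535, over the *Btbd9* stretch 56.5 and 76, and over the *Pde4b* stretch 33 and 34, against a BALB/cJ share of 48.6% over all autosomal regions.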

How the data were processed

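Input and H3K27ac values were the counts and expected counts deposited by the authors, who mapped reads with Bowtie2 to mm10 or to strain-specific versions of it, moved them to mm10 coordinates and counted them with HOMER in windows spanning 1000 bases around merged open-chromatin peaks. Versions are not given in the sources used here. The expected counts deposited by the authors include fractions, which were rounded for tests and kept for the values shown. 0 columns of per-sample values had no sample. CB6F1/J inputs were not analysed here.

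Windows were tested with edgeR 4.0.16 (TMM, robust quasi-likelihood, R 4.3.3), and with DESeq2 1.42.0 as an alternative; the script was tested on simulated data. Blocks are 10 consecutive windows that do not overlap. H3K27ac was tested above a mean of 16 normalised counts over the 9 parental libraries, and jointly with the inputs. Stretches are consecutive windows changed over 1.5-fold around a called one, a limit chosen after the values were seen. Near-identical copies were found with minimap2 2.31-r1302 in GRCm38. Windows to be named were the 12 largest changes per direction with separate replicates and at least 15 normalised counts in the higher strain, 1 per gene and without predicted genes, besides runs, called blocks and listed genes; as calls were few, the others were named too, after their values were seen. Members and lists were chosen with earlier results of these data known. Intervals and floors cover counting error only.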

Additional observations from a re-analysis of the deposited data

How the results depend on the processing

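Of the 29 called windows, none reversed under any alternative run, and each lost its call in at least 1. DESeq2 called 0 windows (0 higher in A/J, 0 in BALB/cJ). Without a low-count filter 49 were called, 27 of them higher in BALB/cJ, and with a sum of at least 60 there were 12, 6 in each direction. Leaving out 1 input library gave 8 to 25 windows, 5 to 15 higher in A/J and 1 to 15 in BALB/cJ. Of the 25, called without BALB/cJ replicate 1, 14 were among the 29. Blocks of 20 windows gave 4 calls, and leaving out 1 library gave 3 to 7 blocks of 10. At a limit of 1.5-fold, 11 windows were loss-like. For H3K27ac, leaving out 1 library gave 1355 to 2152 calls, and for H3K27ac beyond the input 285 to 412. Whether the replicate numbers pair the inputs could not be settled. Deviations of same-numbered libraries correlated at 0.04, 0.04 and -0.01, and those of other pairs at -0.06 to 0.03. At this depth even libraries of the same strain correlated at only 0.06 to 0.12 (Spearman). Between strains, replicate 1 of BALB/cJ correlated at 0.18, 0.12 and 0.15 with replicates 1, 2 and 3 of A/J. The same-numbered replicates 2 correlated at 0.07 and replicates 3 at 0.08. With the replicate number as a block, 33 windows, 10 blocks, 3262 H3K27ac windows and 754 windows of the joint fit were called. Stretches held 85 windows in all, 93 at 1.3-fold and 69 at 2-fold, limits chosen after seeing the data. The cause of these changes was not tested. Depth limits single windows, since 3 counts in 1 library equal 1.65 to 4.54 normalised counts.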
